A study of Mus musculus with 36 samples.

Results

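The 10 genes described here form the core of the mammalian circadian clock and its nearest output: Arntl (also written Bmal1), Clock, Per1, Per2, Per3, Cry1, Cry2, Nr1d1, Nr1d2 and Dbp. They were chosen by name, with earlier results of these data known. All 10 were found in each of the 6 deposited tables of gene counts, which list up to 55487 genes and share 51413. The tables hold RNA-seq libraries of C57BL/6N mouse liver, epididymal white adipose tissue (eWAT), gastrocnemius muscle, round spermatids, cauda sperm and morulae, with 6 libraries of each.

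The fathers were males that ate a high-fat diet (HFD, 60 kcal% fat) or a low-fat diet (LFD, 10 kcal% fat) for 2 weeks from 6 weeks of age. Sperm of the cauda epididymis is represented by 3 HFD and 3 LFD samples, and round spermatids by 3 of each. Morulae were grown for 72 h after in vitro fertilization of oocytes from females on neither diet, 3 samples from HFD and 3 from LFD fathers. Liver, eWAT and gastrocnemius came from chow-fed sons of HFD fathers, 3 glucose tolerant and 3 intolerant per tissue. The columns of these tissues and of the spermatids carry only a library number. Tolerance and diet were therefore not compared there, and each tissue is described over its 6 libraries as numbered in the tables. For 3 morula samples the description field names the other diet, and the diet of the title and treatment field was used. The mice were kept under a light/dark cycle. The time of day at which they were killed is not given in the sources used here, so clock time and any other difference between animals cannot be told apart.

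The clock is a feedback loop of transcription. ARNTL and CLOCK pair to switch on genes that carry an E-box, among them the Per and Cry genes, whose proteins return to repress the pair. NR1D1 and NR1D2 (REV-ERB alpha and beta) close another loop by repressing Arntl, and Dbp is a direct output that acts on D-box genes. In peripheral organs Arntl RNA peaks about opposite to Nr1d1 and Dbp. Sperm carry RNA left from spermatogenesis and are held to make little or none from nuclear genes, while the authors cite active transcription of mitochondrial DNA in mature sperm.

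Totals per library were 2036237 to 2552454 counts in liver, 1338149 to 4055537 in eWAT, 369772 to 2749920 in gastrocnemius, 20138842 to 31056066 in round spermatids, 2560219 to 4062321 in sperm and 11471251 to 12153141 in morulae. Liver markers summed to 45300 to 66600 CPM (counts scaled to a common total per library, the usual depth-normalised unit) in liver, adipose markers to 31800 to 44700 in eWAT and muscle markers to 39000 to 81700 in gastrocnemius. Spermatid and sperm markers summed to 10000 to 12600 CPM in round spermatids and 2810 to 5990 in sperm, and morula markers to 591 to 677 in morulae. 2 libraries stood apart. The eWAT library 17 had a median correlation of 0.896 with the other eWAT libraries, against 0.934 to 0.961 for the others, and held 773 counts of the epithelial gene Epcam where the others held 0 or 1. A list of 7 epithelial genes, chosen after its values were seen, summed to 731 CPM there and to 9.98 to 55.9 elsewhere in eWAT. Gastrocnemius library 4 was the shallowest, with 369772 counts and a median correlation of 0.888. Library 24 of liver had a median correlation of 0.937, against 0.947 to 0.96 for the other liver libraries. Muscle markers summed to 74.2 CPM there and to 10.6 to 25 in the other liver libraries, and leukocyte markers to 124 against 38.3 to 84.5. Library 24 was an extreme for several members, and the part of these markers in its values was not tested.

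The promoters of members that carry the letters of the clock's own DNA elements are shown here, and a link between these letters and co-variation was not tested. RefSeq start sites of assembly GRCm38.p6 gave promoters (250 bases before to 50 after the start) for 9 of the 10 genes, 13 promoters in all. Per2 had none in the table used. The E-box CACGTG, searched on both strands (it is its own reverse complement), was found in promoters of 2 genes, Per1 at chr11:69098699-69098998 on the plus strand and Cry1 at chr10:85185005-85185304 on the minus strand. Of all 32851 promoters in the table, 7.15% held it. The D-box TTANGTAA, on either strand, stood at 2 places in the Per3 promoter at chr4:151044616-151044915 on the minus strand and in 2.32% of all promoters. The core of the element bound by ROR and REV-ERB proteins, TAGGTCA on either strand, was found in the Arntl promoter at chr7:113207261-113207560 on the plus strand and in 2.61% of all promoters. The searched letters overlapped no other motif in these windows. The 4 promoters follow, read 5′ to 3′ on the gene's strand, with the motif in capitals.
Per1: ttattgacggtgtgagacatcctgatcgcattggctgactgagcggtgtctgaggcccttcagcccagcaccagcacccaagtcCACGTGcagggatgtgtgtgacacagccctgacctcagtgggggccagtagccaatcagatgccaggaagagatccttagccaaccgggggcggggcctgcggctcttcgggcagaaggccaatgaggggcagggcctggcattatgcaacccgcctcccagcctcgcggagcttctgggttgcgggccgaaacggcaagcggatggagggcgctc
Cry1: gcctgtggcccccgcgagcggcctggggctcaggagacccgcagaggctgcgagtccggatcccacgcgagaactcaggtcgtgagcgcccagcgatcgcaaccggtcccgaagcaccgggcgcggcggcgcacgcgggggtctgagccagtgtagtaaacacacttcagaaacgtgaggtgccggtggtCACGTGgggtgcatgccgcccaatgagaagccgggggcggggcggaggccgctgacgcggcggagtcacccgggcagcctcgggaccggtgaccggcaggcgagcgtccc
Per3: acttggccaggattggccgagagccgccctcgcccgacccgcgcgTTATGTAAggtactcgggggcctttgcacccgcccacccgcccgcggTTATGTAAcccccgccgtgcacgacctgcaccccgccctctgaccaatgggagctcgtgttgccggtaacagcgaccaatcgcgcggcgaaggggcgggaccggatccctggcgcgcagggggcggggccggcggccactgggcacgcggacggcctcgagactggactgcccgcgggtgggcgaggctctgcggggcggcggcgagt
Arntl: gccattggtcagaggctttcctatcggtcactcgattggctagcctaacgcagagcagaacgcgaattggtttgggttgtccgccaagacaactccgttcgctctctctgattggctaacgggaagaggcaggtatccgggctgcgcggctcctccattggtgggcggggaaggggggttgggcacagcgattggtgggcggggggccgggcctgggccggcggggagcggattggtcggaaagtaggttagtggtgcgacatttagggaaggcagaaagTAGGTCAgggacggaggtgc
The motif began at -166 from the start site in Per1, at -60 in Cry1, at -205 and -158 in Per3 and at 31 in Arntl.

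The question put to the 3 tissues of the sons is how high each clock gene stood in each organ and how far the libraries of an organ differed. In CPM of library totals, Clock and Per1 in eWAT did not overlap liver and Per3 in eWAT did not overlap gastrocnemius, and Arntl and Nr1d1 spread over 4.52-fold and 4.85-fold among the liver libraries. The libraries of these tissues were made with a 3′ kit that reads the end of each transcript, so levels are compared between tissues and not between genes. Arntl, the activator whose loss stops the clock, was at 22.7, 12.3, 17.1, 14, 17 and 4.42 CPM in liver libraries 13, 14, 15, 16, 23 and 24. Library 24 was lowest and library 13 highest, on 9 and 58 counts. In eWAT Arntl lay between 19.6 and 41.3 CPM (median 32.9), lowest in library 17, and in gastrocnemius between 21.4 and 57.7 (median 31.6). In bulk tissue, fewer cells of a type and less RNA per cell cannot be told apart.

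**Figure D1:**
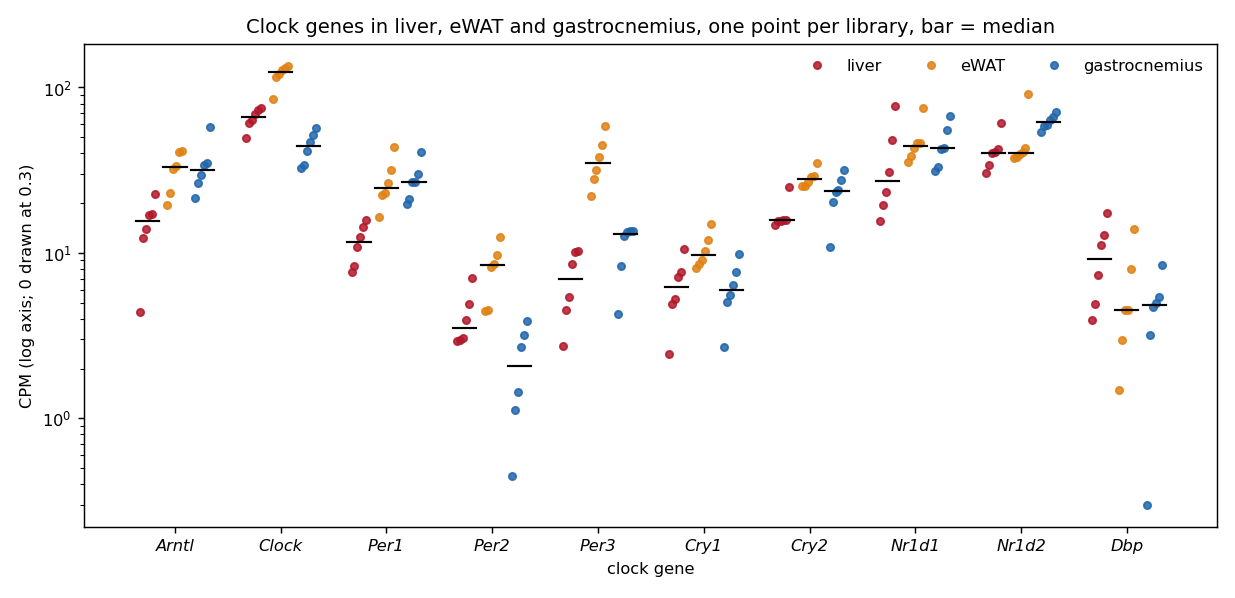
CPM of library totals (log axis, 0 drawn at 0.3) of the 10 clock genes in the 6 libraries of liver, eWAT and gastrocnemius, 1 point per library with the median as a bar. Clock and Per1 in liver sat below all eWAT points, and Per3 in gastrocnemius sat below all eWAT points.

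Clock, the partner of Arntl, varied less than Arntl, with 49.6 to 75.2 CPM in liver, 85.7 to 135 in eWAT and 32.5 to 56.6 in gastrocnemius. On library totals the eWAT libraries all lay above the liver libraries, with medians of 124 and 66.2 CPM and a log2 fold change of liver against eWAT of -0.87. After TMM, a scaling factor described with the tissue tests, it was 0.04 (adjusted p = 0.834, edgeR), so this order held on totals alone. Of the Per repressors, Per1 was at 7.67 to 15.8 CPM in liver, 16.5 to 43.9 in eWAT and 19.7 to 40.6 in gastrocnemius, without overlap between liver and eWAT on totals, and at -0.32 (adjusted p = 0.26, edgeR) for liver against eWAT after TMM. Per2 lay at 2.95 to 7.05 CPM in liver, 4.48 to 12.5 in eWAT and 0.451 to 3.88 in gastrocnemius, where it rested on 1 to 7 counts. Per3 was highest in eWAT, at 22.2 to 58.7 CPM, against 4.27 to 13.5 in gastrocnemius and 2.74 to 10.3 in liver.

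Of the cryptochromes, Cry1 was at 2.46 to 10.6 CPM in liver, 8.14 to 14.9 in eWAT and 2.7 to 9.82 in gastrocnemius, so all 3 ranges overlapped with a neighbour. Cry2 was at 14.8 to 15.8 CPM in 5 liver libraries and at 25 in library 24. It lay at 25.3 to 34.8 CPM in eWAT, above every liver library on totals, and at 10.8 to 31.5 in gastrocnemius, lowest in the shallow library 4. After TMM the log2 fold change of Cry2 in liver against eWAT was 0.19 (adjusted p = 0.437, edgeR), so this order too held on totals alone.

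Of the REV-ERB repressors, Nr1d1 was at 19.6, 30.9, 15.7, 23.2, 48.1 and 77.1 CPM in liver libraries 13, 14, 15, 16, 23 and 24. Library 24, lowest for Arntl, was highest for Nr1d1. In eWAT, library 17 was at 75.2 CPM and the other 5 at 35.5 to 46.3, while gastrocnemius ran from 31.3 to 67.6. Nr1d2 had the same extreme libraries, with 60.9 CPM in liver library 24 against 30.6 to 42.2 elsewhere in liver, and 91.4 in eWAT library 17 against 37.4 to 43.0. In gastrocnemius it ran from 54.1 to 71.3 CPM, a 1.17-fold range after scaling of the libraries and the smallest of any member there. Dbp, the output factor, was at 3.92 to 17.5 CPM in liver and 1.49 to 14 in eWAT. In gastrocnemius it was at 3.21 to 8.45 in 5 libraries and at 0 counts in library 4, which allows up to 8.11 CPM (3 counts, covering counting error only).

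Some of these genes share their locus with another. Nr1d1 (chr11:98767932-98775333, GRCm38, minus strand) overlaps Thra on the plus strand and Dbp (chr7:45705088-45710203, plus strand) overlaps Sphk2 on the minus strand. Arntl overlaps the antisense Gm45355, Cry2 overlaps D930015M05Rik on the other strand, and Per3 overlaps Camta1 and Clock overlaps a pseudogene and Gm43658 on their own strand. The strand setting of the counting is not given in the sources used here, so reads from such overlaps cannot be told apart. Per1, Per2, Cry1 and Nr1d2 overlap no annotated gene.

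The tissues were then compared over all 10851 genes that passed a filter on low counts (edgeR's filterByExpr, minimum count 10), with libraries scaled by TMM, a factor that sets the typical gene level between libraries. Calls are adjusted p-values under 0.05 from edgeR's quasi-likelihood test in 1 fit of the 18 libraries, and most genes pass it between organs. Between liver and eWAT 61.6% of all genes were called and 3 of 10 members. Per3 was lower in liver, with a log2 fold change of -1.48 (SE 0.29, adjusted p = 0.000122, edgeR). Nr1d2 was higher in liver by 0.72 (SE 0.20, adjusted p = 0.00345, edgeR) and Dbp by 1.60 (SE 0.42, adjusted p = 0.00197, edgeR). The direction of Nr1d2 depended on the scaling, since it was -0.23 with library totals alone, and Dbp was then at 0.66 (adjusted p = 0.171, edgeR) and no longer called. The median of all genes moved from -0.07 with TMM to -1.0 with totals in this comparison, from 0.06 to 0.10 between liver and gastrocnemius, and from 0.35 to 1.32 between eWAT and gastrocnemius.

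Between liver and gastrocnemius 66.4% of all genes and 6 of 10 members were called. Clock (0.53, SE 0.17, adjusted p = 0.00826, edgeR) and Per2 (1.09, SE 0.45, adjusted p = 0.036, edgeR) were higher in liver. Arntl (-1.20, SE 0.29), Per1 (-1.22, SE 0.26), Cry2 (-0.54, SE 0.21) and Nr1d2 (-0.63, SE 0.20) were lower, with adjusted p from 0.000208 to 0.0286 by edgeR. Without the filter on low counts, Per2 (adjusted p = 0.0952, edgeR) and Cry2 (adjusted p = 0.144, edgeR) were no longer called. Per3 was at -0.71 (adjusted p = 0.0588, edgeR) and was called without eWAT library 17, at -0.72 (adjusted p = 0.0411, edgeR).

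Between eWAT and gastrocnemius 67.4% of all genes and 8 of 10 members were called. Clock (0.49), Per2 (1.10) and Per3 (0.77) were higher in eWAT. Arntl (-1.02), Per1 (-0.90), Cry2 (-0.73), Nr1d1 (-0.87) and Nr1d2 (-1.35, SE 0.20, adjusted p = 4.12e-06, edgeR) were lower, and the other 7 called members had adjusted p from 0.00235 to 0.0256 by edgeR. The median of the members was -0.74 beside 0.35 over all genes. With library totals 3 members were called, Arntl and Nr1d2 moved to -0.08 and -0.37, and Per1, Cry2 and Nr1d1 changed sign, to 0.05, 0.24 and 0.10. Without the filter Per2 was not called (adjusted p = 0.0556, edgeR). Without library 17, Per3 was at 0.63 (adjusted p = 0.0533, edgeR) and Dbp, at -0.75 with it, was called at -1.18 (adjusted p = 0.0209, edgeR). Tissue and deposited table cannot be told apart in these comparisons. The labels do not tie the tissue libraries to each other, so organs of 1 mouse may stand in all 3 groups.

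Among 20 further genes of the clock pathway (its kinases, ligases, PAR bZIP factors and outputs), 15 passed the filter. Between liver and eWAT 4 were higher and 3 lower in liver. The higher ones were Rora, Nfil3, Hlf and Bhlhe40, with Nfil3, a repressor of D-box genes, at 2.62 and Bhlhe40 at 3.06, and the lower ones included Bhlhe41 at -1.12 and Csnk1e at -1.72. Without eWAT library 17, 6 were higher and 2 lower, with Bhlhe41 at -0.41 (adjusted p = 0.297, edgeR) no longer called and Usp2, a deubiquitinase, called at 0.93 (adjusted p = 0.00669, edgeR). Against gastrocnemius, liver had 2 higher and 8 lower, and eWAT 2 higher and 10 lower. In these contrasts Usp2 was at -3.22 and -2.87, and Bhlhe41 at -3.32 and -2.20. Without library 17 the eWAT values were -4.16 for Usp2 and -2.94 for Bhlhe41, with 2 pathway genes higher and 11 lower.

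Because phase is a property of an animal at the moment it is killed, the members were next followed from library to library within a tissue. The spread was measured as the SD of log2 CPM (TMM within the tissue, prior count 2). In liver, Nr1d1 had an SD of 0.84, Arntl 0.74 and Dbp 0.74, against a median of 0.32 over the 6462 genes that passed the filter in liver. Their SDs stood at the percentiles 98.9, 98.0 and 98.0 of those genes. Low counts widen an SD, and 5 of the 10 members passed the filter in liver. Arntl, Per2, Per3, Cry1 and Dbp did not, so Arntl and Dbp were ranked against a set of genes that leaves them out. The variance was therefore also divided by that expected of counting alone. This ratio was 33.3 for Nr1d1, 6.31 for Dbp and 5.59 for Arntl, beside a median of 3.21 over all genes. Nr1d2 was at 6.03 and Per3 at 3.23, while Clock (3.0), Cry1 (2.75), Per1 (1.95), Cry2 (1.93) and Per2 (1.59) lay below that median. The ratio was over 2 for 7 of 10 members, and for 68.9% of the genes that passed the filter.

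**Figure D2:**
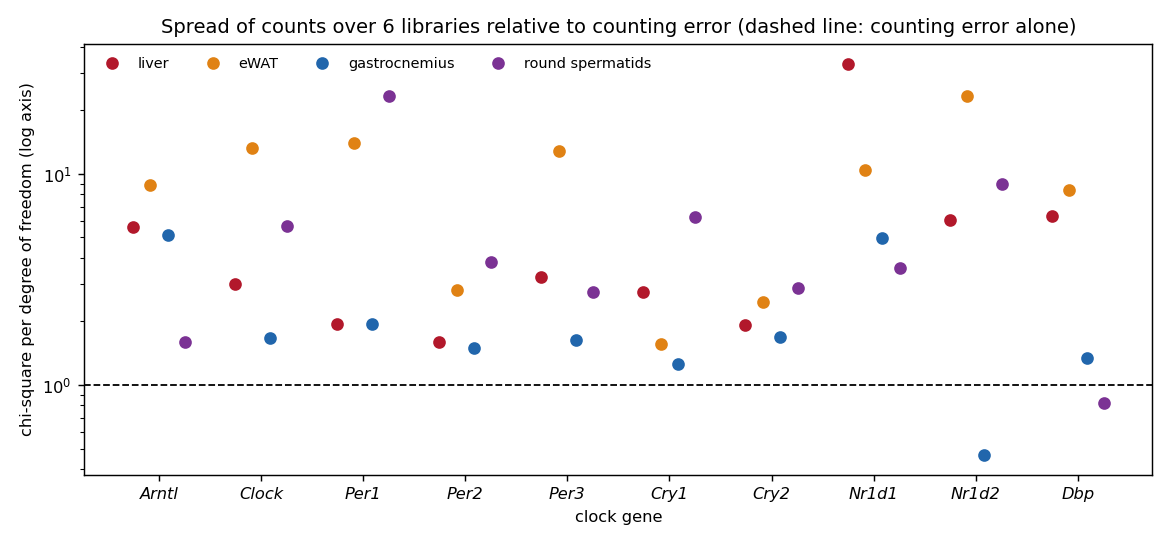
Chi-square of the counts over the 6 libraries per degree of freedom (log axis) for each clock gene, 1 point per tissue, with the dashed line where counting error alone would put it. Nr1d1 in liver (33.3), Nr1d2 in eWAT (23.3) and Per1 in round spermatids (23.5) stood highest.

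In eWAT the ratio was over 2 for 9 of 10 members and for 75.7% of genes, with Nr1d2 at 23.3, Per1 at 14, Clock at 13.2 and Per3 at 12.8, beside a median of 4.21 over all genes. In gastrocnemius only Arntl (5.14) and Nr1d1 (4.98) were over 2, while 55.4% of genes were, with a median of 2.26. The other 8 members there had ratios of 0.465 to 1.95, and the SD of 1.04 for Dbp came with a ratio of 1.34. In round spermatids the members had a median SD of 0.14, beside 0.15 for all genes.

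In CPM, liver library 24 held the lowest Arntl, Clock, Cry1 and Per2 and the highest Cry2, Nr1d1, Nr1d2 and Per3. Library 13 held the highest Arntl, Clock, Per2 and Cry1 and the lowest Per3, Nr1d2 and Dbp. Pearson's r of log2 CPM was computed for the 45 pairs of members in each tissue, each with an exact two-sided permutation p over the 720 pairings of 6 libraries, adjusted over all 135 pairs by Benjamini-Hochberg. Of these, 18 had an unadjusted p under 0.05 (10 in liver, 5 in eWAT, 3 in gastrocnemius) and 4 an adjusted p under 0.05. Each of the 4 had an exact permutation p of 0.00139, the smallest these pairings can give, and an adjusted p of 0.0469.

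**Figure D3:**
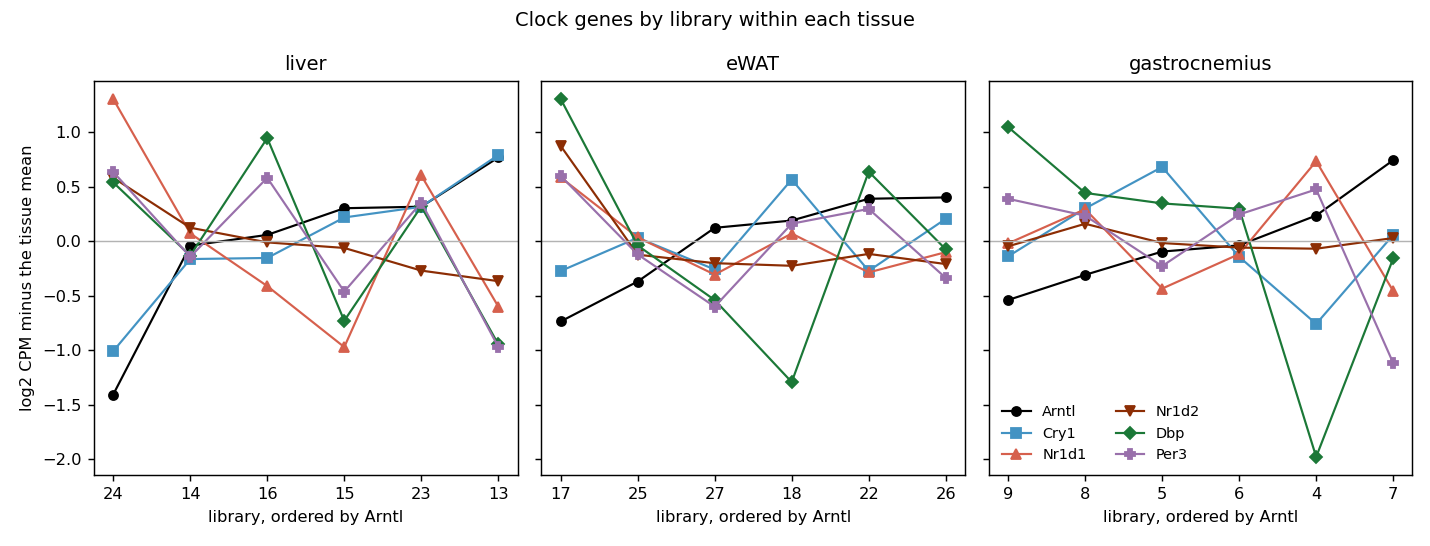
log2 CPM of 6 clock genes minus the tissue mean, by library, with the libraries of each tissue ordered by Arntl. In liver Cry1 (squares) follows Arntl (circles) from library 24 to library 13 and Nr1d2 (triangles pointing down) runs the other way, while Dbp in eWAT and gastrocnemius moves most in single libraries.

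Of these 4 pairs, 3 were in liver. They are the 3 pairings of Arntl, Cry1 and Nr1d2, so they are not separate results. Arntl and Cry1 ran together with r = 0.97 (Spearman's rho 1.00), and r was 0.97 without libraries 13 and 24, the farthest from the median of Arntl. Arntl and Nr1d2 ran opposite with r = -0.97 (rho -1.0), at -0.86 without those libraries, and Cry1 and Nr1d2 likewise had -0.97 (rho -1.0) and -0.86. Each of these rho had an exact permutation p of 0.00278 and an adjusted p of 0.0938, so 0 pairs passed by rank. With library totals or DESeq2 size factors in place of TMM, r of the 4 pairs stayed at 0.97 to 0.99 in size but their adjusted p was 0.075, so that none passed. Cry1 rested on 5 to 27 counts per library and Arntl on 9 to 58, and neither passed the filter in liver.

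The remaining pair was in gastrocnemius, where Cry2 and Dbp had r = 0.98 (rho 1.00) and 0.90 without libraries 4 and 9. Dbp rested on 0 to 15 counts there, and library 4 had 4 counts of Cry2. In eWAT 0 pairs passed, with a smallest adjusted p of 0.0804 for Clock with Nr1d2 (r = -0.98) and for Nr1d2 with Dbp (r = 0.76), each with an exact permutation p of 0.00417. The r of Clock with Nr1d2 was -0.84 without library 17.

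**Figure D4:**
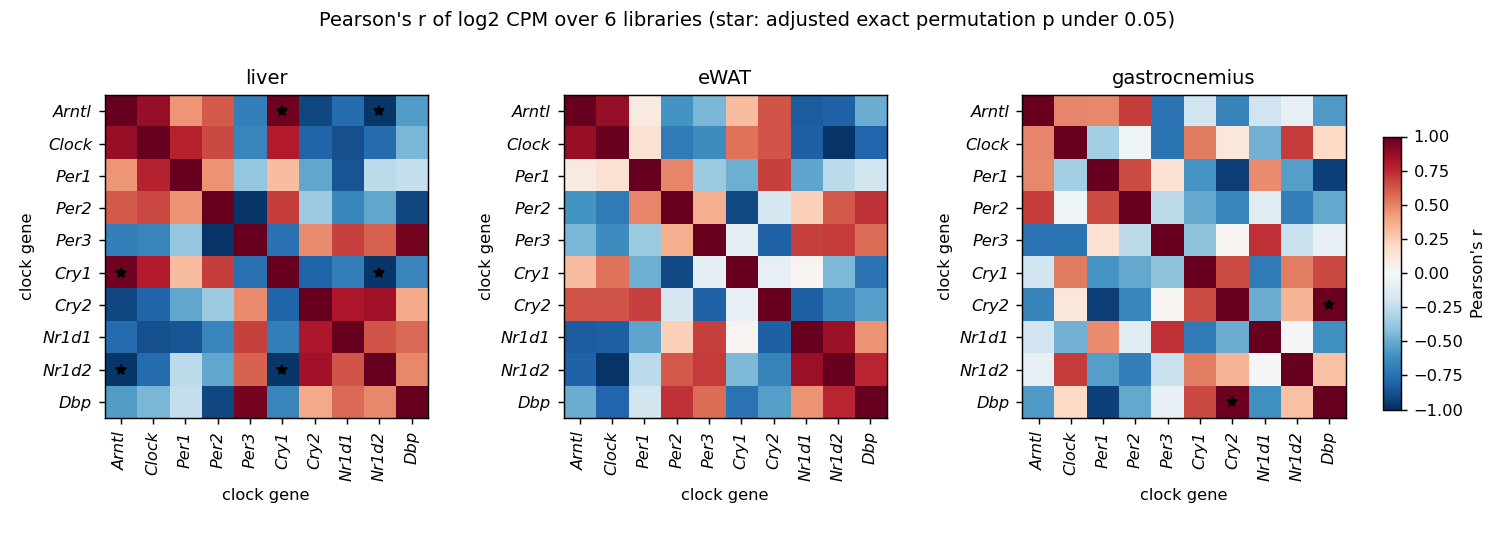
Pearson's r of log2 CPM over the 6 libraries for each pair of clock genes in liver, eWAT and gastrocnemius (colour scale from -1 to 1). Stars mark the 4 pairs with an adjusted exact permutation p of 0.0469, of which 3 are in liver and 1 in gastrocnemius.

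Arntl was set against Nr1d1 and Dbp, the genes that peak opposite to it in a cycling organ. Arntl and Nr1d1 had r = -0.77 in liver (rho -0.54, exact permutation p = 0.0611, adjusted p = 0.338). In eWAT r was -0.83 (rho -0.49, exact permutation p = 0.0403, adjusted p = 0.302) and in gastrocnemius -0.20 (rho -0.31, exact permutation p = 0.714, adjusted p = 0.809). Without the 2 libraries farthest from the Arntl median these became -0.05, -0.06 and 0.45. Taking out the extremes narrows the range of Arntl, so these values cannot show how far r rested on those libraries. With 1 library left out r ran from -0.93 to -0.29 in liver, from -0.88 to -0.47 in eWAT and from -0.68 to 0.40 in gastrocnemius.

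Arntl and Dbp had r = -0.56 in liver (rho -0.60), -0.50 in eWAT (rho -0.37) and -0.57 in gastrocnemius (rho -0.94), with exact permutation p of 0.258, 0.303 and 0.243 and adjusted p of 0.447, 0.491 and 0.432. Without the 2 farthest libraries they were -0.33, 0.75 and -0.88. In eWAT r was 0.13 without library 17 alone, and in gastrocnemius -0.92 without library 4, which had no Dbp count. Nr1d1 and Dbp, which peak close to each other, had r = 0.57 in liver, 0.45 in eWAT and -0.61 in gastrocnemius (rho 0.60, 0.26 and 0.03), with exact permutation p of 0.24, 0.383 and 0.203 and adjusted p of 0.432, 0.523 and 0.408. These became 0.29, -0.82 and 0.23 without the 2 farthest libraries. The sign of r was the same in all 3 tissues for 16 of the 45 pairs of members.

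The members were then read against all genes that passed the filter in a tissue. In liver 8.02% of 6462 genes had r of at least 0.8 with Arntl, and 6.53% had r of -0.8 or lower. Of the 9 other members, 5 passed that filter, with 1 in the first group (Clock 0.87) and 2 in the second (Nr1d2 -0.97, Cry2 -0.91). With 1 library left out these r ran from 0.44 to 0.97 for Clock, from -0.99 to -0.10 for Cry2 and from -0.98 to -0.91 for Nr1d2. Cry1, at 0.97, did not pass the filter in liver, so it stands outside these shares. Arntl, to which every r refers, did not pass it in liver either. In eWAT the shares were 5.14% and 4.31% of 9831 genes, with 1 member high (Clock 0.87) and 2 low (Nr1d1 -0.83, Nr1d2 -0.81). Those 3 were at 0.66, -0.47 and -0.36 without library 17. In gastrocnemius 5.05% and 6.64% of 5030 genes passed these limits and 0 of 9 members did. Without library 4 the shares were 10.6% and 11.9%, and Per3 (-0.94), Dbp (-0.92) and Cry2 (-0.91) were past -0.8, of which Cry2 passed the filter. With so few members, these are counts and not a test.

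Arntl's pattern was also compared with that of 5812 genes over the 18 libraries of the 3 tissues, each tissue centred on its mean. The genes most like it were Ivd (r = 0.88), Dnajb4 (0.86), Hadh (0.83), Slc25a16 (0.83), Mut (0.83) and Atf2 (0.81). Those most opposite were Tbc1d22a (-0.93), Gsk3a (-0.82), Sec61a1 (-0.82), Psmd13 (-0.81), Tmem147 (-0.81) and Aldoa (-0.81). Among the members, Clock had 0.72, Cry1 0.53, Per1 0.32 and Per2 0.27. On the other side stood Nr1d2 at -0.74, Nr1d1 at -0.65, Per3 at -0.64, Dbp at -0.51 and Cry2 at -0.47. Without eWAT library 17 and gastrocnemius library 4, Cry2 moved to -0.75 and the others kept their sign, with Nr1d2 at -0.78 and Clock at 0.79. The points share tissues and libraries, so these values describe and carry no p.

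In the germ line and embryo, libraries were made with another kit that reads whole transcripts, so levels can be compared between genes as TPM (counts per kilobase of exon, scaled to the same sum in every library). Round spermatids are haploid cells that are turning into sperm. Per1 led there at 63.4 ± 8.39 TPM (SD, n = 6), followed by Cry1 at 28.4 ± 3.55 and Nr1d1 at 16.9 ± 1.28, and these 3 overlapped with no neighbour. Cry2 (7.78), Per2 (6.28), Clock (5.08) and Nr1d2 (4.17) came next, with overlapping neighbours within this group, and Per3 (2.18), Arntl (1.79) and Dbp (1.04) were lowest. In CPM, Per1 was at 132 to 173 in round spermatids, against 1.67 to 21.9 in sperm and 4.47 to 10.4 in morulae.

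Morulae had another order. Cry1 led with 31.8 ± 0.862 TPM in LFD and 31.6 ± 7.11 in HFD morulae (SD, n = 3 each), followed by Nr1d1 at 10.1 ± 0.615 and 9.13 ± 2.37. Clock (3.71 and 3.31), Nr1d2 (3.61 and 4.04), Cry2 (2.33 and 2.66) and Per1 (2.21 and 3.08) were lower. Arntl stood at 0.669 and 0.794, and Per2, Per3 and Dbp lower still, with Per2 on 0 to 9 counts per library. In LFD sperm Clock was highest, at 11.4 ± 6.31 TPM, and Arntl lowest at 1.41 ± 0.362, but every member overlapped its neighbours in the order.

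The diets were compared in sperm and in morulae. In sperm 9 of 10 members had lower CPM in all 3 HFD libraries than in all 3 LFD libraries, Nr1d1 being the exception. On the same scale 57.2% of the 8643 genes tested were lower in that way, beside 8 of the 9 members tested. The share of counts from mitochondrial DNA moved with it, at 78.1% to 84.3% in HFD and 43.5% to 64.7% in LFD sperm. With mitochondrial genes left out and TMM scaling kept, 0 members were called and Arntl was at a log2 fold change of -2.20. TMM already rescales the libraries, so this run cannot show what part mitochondrial counts had in the lower CPM of totals. After TMM scaling 1 of the 9 tested members did not overlap between the diets, against 20.4% of all genes tested. That member was Arntl, with 0, 4 and 1 counts in HFD libraries h1000, h3000 and h4000 and 20, 16 and 19 in LFD libraries l1000, l2000 and l4000. Scaled, these were 0, 1.38 and 0.614 CPM against 4.52, 3.37 and 2.88, so the HFD libraries were all lower. The count of 0 allows up to 1.00 CPM of that library's total. The log2 fold change of Arntl was -2.22 (SE 1.10, adjusted p = 0.421, edgeR), which did not pass.

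No member was called in sperm. All 8643 genes gave 0.0% calls by edgeR, with 1122 genes and 0 members at an unadjusted p under 0.05, and DESeq2 called 295 genes and 0 members. DESeq2 gave Arntl, Per2, Cry1 and Nr1d1 no adjusted p, so it could not call them. Clock, at 22, 44.0 and 39.3 scaled CPM with HFD and 52.9, 39.3 and 54.6 with LFD, had a log2 fold change of -0.47 (SE 0.47, adjusted p = 0.723, edgeR). Cry2 was at 3.87, 11.4 and 7.99 against 18.3, 10.7 and 13.8, or -0.86 (SE 0.66, adjusted p = 0.627, edgeR). These ranges overlapped. The other members were at -0.97 (Per2), -0.62 (Nr1d2), -0.13 (Cry1), -0.03 (Nr1d1), 0.00 (Per3) and 0.09 (Per1), with SEs of 0.58 to 1.13. Dbp, with 3 to 45 counts, did not pass the filter.

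With library totals in place of TMM the median of all genes moved from -0.07 to -1.82 and that of the members from -0.47 to -2.22. Then 3266 genes and 4 members were called: Arntl (-3.77), Clock (-2.22), Nr1d2 (-2.42) and Cry2 (-2.53), with adjusted p from 0.0181 to 0.0285 by edgeR. The median of the members lay below that of all genes on both scales. Genes of the epididymal epithelium summed to 1590 to 2610 CPM in HFD sperm and to 2480, 7820 and 23500 in LFD sperm, and their part in the values was not tested. Nothing in the labels says whether the replicates are single males or pools, so these p-values measure the spread between the samples.

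**Figure D5:**
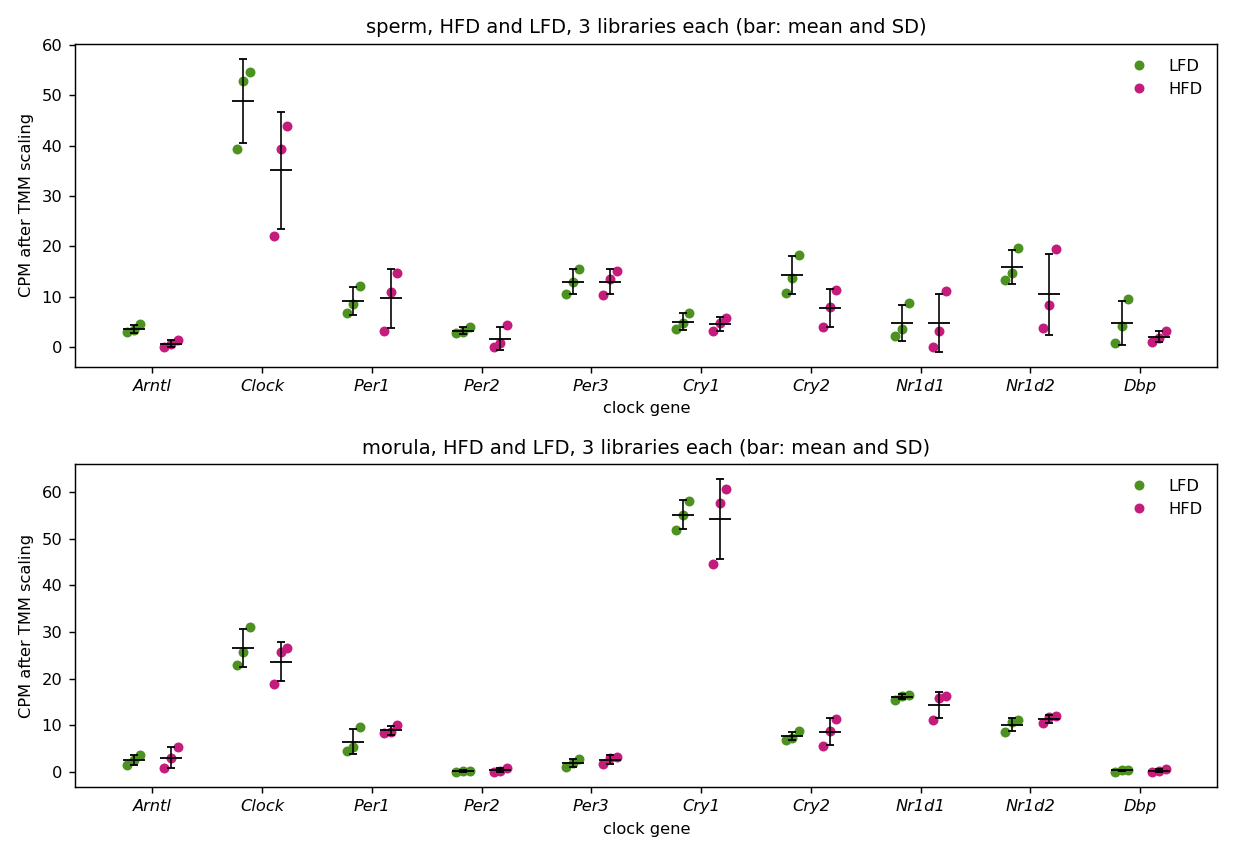
CPM after TMM scaling of the 10 clock genes in sperm (top) and morulae (bottom), 3 LFD and 3 HFD libraries each, with the mean and SD as bars. In sperm the HFD points of Arntl lie below its LFD points, and the diets overlap for the other 9 genes in sperm and for all 10 in morulae.

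In morulae 8 members were tested and 0 called, with 0.0% of 13447 genes called by edgeR, 858 at an unadjusted p under 0.05 and 18 by DESeq2. None of the 8 had an unadjusted p under 0.05 by edgeR or was called by DESeq2. Arntl, Per1, Per3 and Cry2 got no adjusted p from DESeq2, so it could not call them. No member's scaled CPM separated the diets, against 12.1% of all genes. Cry1 was at 44.5, 57.6 and 60.7 scaled CPM with HFD fathers and 52.0, 55.2 and 58.2 with LFD fathers, a log2 fold change of -0.02 (SE 0.14, adjusted p = 0.991, edgeR). Per1 had the largest difference, 0.47 (SE 0.31, adjusted p = 0.846, edgeR), at 8.30, 8.50 and 10.1 against 5.37, 9.57 and 4.55. Arntl was at 3.09, 5.30 and 0.873 against 1.55, 3.72 and 2.66, or 0.22 (SE 0.59). Clock (-0.17), Nr1d1 (-0.16), Cry2 (0.16), Nr1d2 (0.16) and Per3 (0.46) had SEs of 0.18 to 0.53. Per2 and Dbp, with 0 to 9 counts, were not tested.

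Of the further genes of the clock pathway, 0 of 12 were called in sperm (6 higher and 6 lower with HFD) and 0 of 16 in morulae (10 higher and 6 lower). In sperm 2 of the 12 had an unadjusted p under 0.05 by edgeR, beside 1122 of all 8643 genes tested. These were Usp2 at a log2 fold change of 1.90 (SE 0.53, adjusted p = 0.232, edgeR) and Hlf, a PAR bZIP factor like Dbp, at -1.34 (SE 0.60, adjusted p = 0.359, edgeR). DESeq2 called Usp2, at 2.04 (adjusted p = 0.0155), among 295 genes in all. This difference depended on the scaling. On library totals Usp2 averaged 61.6 CPM with HFD and 56.5 with LFD, and the diets overlapped. After TMM the means were 120 and 32.1.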

How the data were processed

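RNA-seq was analysed from 6 deposited tables of counts, whole read counts per gene that the authors made by trimming reads with BBDuk, mapping them with STAR to GRCm38 and counting with featureCounts. Tool versions and the strand setting are not given in the sources used here. Liver, eWAT and gastrocnemius libraries came from TRIzol RNA and a 3′ QuantSeq kit, the others from a Nextera kit, so kits were not compared. RNA of round spermatids was prepared with RNeasy, and that of sperm with TRIzol and an RNeasy or miRNeasy kit. The RNA preparation of morulae is not given in the sources used here. All 36 count columns were used, and 0 columns of per-sample values were left out.

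Counts were tested with edgeR 4.0.16 in R 4.3.3 (filterByExpr with a minimum count of 10, TMM, quasi-likelihood test, two-sided, Benjamini-Hochberg over all genes, threshold 0.05). DESeq2 1.42.0, library totals, no filter, other thresholds and left-out libraries were alternatives. The scripts were tested on simulated data. Correlations used numpy 2.4.6 and scipy 1.17.1. The members and lists were chosen with earlier results of these data known. Beside the 10 members, genes were named if they belonged to the pathway list and passed a test, or were among the 6 with the highest and the 6 with the lowest r with Arntl at a mean of at least 5 CPM in each tissue. A few genes of the pathway list are counted but not reported by name here. Names outside this rule were chosen after their values were seen. The sperm columns of the diets share the numbers 1000 and 4000. Deviations from the group means had a correlation of 0.11 and -0.15 for these, and nothing in the labels ties them to 1 animal, so they were not treated as pairs.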

Additional observations from a re-analysis of the deposited data

Results flagged for a closer look

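Among 40 groups of 6 libraries (10 genes in liver, eWAT, gastrocnemius and round spermatids), 4 values lay far from the other 5 of their group by Dixon's criterion, and chance alone gives about 1 in 20. Cry2 in liver library 24 was at 25 CPM against 14.8 to 15.8 in the others, a gap of 0.902 of the whole range. Nr1d1 in eWAT library 17 was at 75.2 CPM against 35.5 to 46.3, and Nr1d2 in the same library at 91.4 against 37.4 to 43.0. That library also held the epithelial genes named above, whose part in these values was not tested. Cry1 in round spermatid library 14369 was at 33.9 CPM against 40.0 to 43.0.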

How the results depend on the processing

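No member was called in sperm or morulae by edgeR or DESeq2 under any alternative run, except with library totals in sperm, which gave 4. Members to which DESeq2 gave no adjusted p could not be called by it. Several small diet effects turned sign under some settings (all log2 fold changes). In sperm Per1 was at -1.65 with library totals, -0.10 without the filter and -0.46 with the replicate block on the shared sperm numbers, Per3 at -1.72 with totals and -0.17 without the filter, and Nr1d1 at 0.12 with DESeq2 size factors and 0.13 by DESeq2. Leaving out 1 sperm library gave -0.32 to 0.47 for Per1, -0.14 to 0.13 for Per3, -0.34 to 0.20 for Cry1 and -1.48 to 0.84 for Nr1d1. The replicate block gave 0 called members, and morula and tissue columns share no numbers. In morulae Cry1 was at 0.01 with totals, and leaving out 1 library gave -0.11 to 0.10 for Cry1, -0.42 to 0.67 for Arntl and -0.09 to 0.39 for Cry2. Between tissues, library totals gave 7 called members for liver against eWAT and 3 for eWAT against gastrocnemius, and a minimum log2 fold change of 1 gave 3 in both contrasts with gastrocnemius. With totals, liver against eWAT turned to -0.87 for Clock, -0.69 for Cry1, -0.73 for Cry2, -0.41 for Nr1d1 and -0.23 for Nr1d2, and eWAT against gastrocnemius to 0.05 for Per1, 0.62 for Cry1, 0.24 for Cry2, 0.10 for Nr1d1 and 0.25 for Dbp. Clock in liver against eWAT was at 0.00 without the filter and -0.08 without library 17, where Per2 was at 0.10. The settings without eWAT library 17 or gastrocnemius library 4, and without mitochondrial genes, were chosen after seeing the data. For pairs, r with totals, size factors and rho was 0.97, 0.97 and 1.00 (Arntl with Cry1), -0.97, -0.97 and -1.0 (Arntl with Nr1d2), -0.98, -0.97 and -1.0 (Cry1 with Nr1d2) and 0.99, 0.98 and 1.00 (Cry2 with Dbp), none passing. Leaving out 1 library gave 0.97 to 0.99, -0.98 to -0.91, -0.98 to -0.92 and 0.96 to 0.99, where 5 libraries allow too few pairings to pass. These pairs were chosen for these runs after their values were seen, so their high r here is no separate support. Nr1d1 with Dbp in gastrocnemius had a rho of 0.03 and r of -0.75 to 0.53 (0.53 without library 4). Leaving out 1 library gave -0.76 to 0.13 for Arntl with Dbp in eWAT, -0.51 to 0.74 for Nr1d1 with Dbp in eWAT and -0.68 to 0.40 for Arntl with Nr1d1 in gastrocnemius. The share of all genes past 0.8 and -0.8 with Arntl was 2.52% and 2.46% (liver), 1.49% and 0.997% (eWAT) and 1.37% and 1.97% (gastrocnemius) at a limit of 0.9. With 1 library left out it was 4.30% to 13.6% and 4.43% to 10.8% in liver, 4.94% to 10.4% and 3.98% to 11% in eWAT, and 6.20% to 10.6% and 8.41% to 11.9% in gastrocnemius. The causes were not tested. Depth limits Arntl in HFD sperm (0 to 4 counts), Per2 in gastrocnemius and morulae, and Dbp in gastrocnemius, sperm and morulae.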

Other observations

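Genes that glucocorticoid hormones induce were read beside the members, since the hormone's level also follows the day. Of 9 such genes, 3 had r of at least 0.8 with Arntl over the 6 liver libraries, namely Fkbp5 (0.92), Klf9 (0.89) and Cdkn1a (0.87). Of the 7 that passed the filter in liver, 2 reached that limit, beside 8.02% of all genes that passed it. Liver library 24, lowest for Arntl, was also lowest for Fkbp5 at 1.96 CPM, for Tsc22d3 at 11.8, for Klf9 at 409 and for Zbtb16 at 15.7. The metallothioneins went the other way, with library 24 highest for Mt1 at 1470 CPM and Mt2 at 690 and r with Arntl of -0.65 and -0.59, and Sgk1 was at -0.11. Fkbp5 did not pass the filter on low counts in liver. In eWAT 2 of the 9 had r of -0.8 or lower, Fkbp5 (-0.86) and Mt2 (-0.85), beside 4.31% of all genes. These 2 were at -0.74 and -0.75 without library 17, where Klf9 was at -0.83. In gastrocnemius 1 had r of at least 0.8, Pdk4 (0.89), beside 5.05% of all genes. Without library 4 Pdk4 was at 0.97 and Klf9 at 1.0. These are counts over 6 libraries of a tissue and were not tested.

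Of the 20 further clock pathway genes, Rora (0.80) was past 0.8 and Bhlhe41 (-0.81) past -0.8 with Arntl in liver. Of all genes that passed the filter there, 8.02% and 6.53% were past these limits. In gastrocnemius Tef (-0.95) was past -0.8, beside 6.64% of all genes. In eWAT none of the 20 passed either limit.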
